A study of Mus musculus with 2 samples.

Results

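Tmcc2, Cd24a, Metap2, Pabpc1 and Narf are 5 genes that stood high in the RNA of mouse erythroblasts although none of them belongs to the globin, heme, iron or red cell membrane genes usually listed for these cells. They are 5 of 43346 Ensembl genes in the tables and of 21461 nuclear protein-coding genes. They were chosen by their high TPM in both libraries, with no stated limit, so their level is a description and was not tested. The choice did not name transcript shares, transcript starts or the levels of related genes. A high TPM in both libraries does limit how far the replicates can differ, and gene TPM depends in part on the transcript shares through length.

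Erythroblasts are the nucleated precursors of red blood cells. The samples were primary erythroblasts of the mouse strain C57BL/6J, from males at 5 to 6 weeks of age, and the title of the isolation protocol names bone marrow. No genotype change, treatment or other group is given. Each of 2 libraries was made from 100 ng of total RNA depleted of ribosomal RNA with a ScriptSeq kit, for a size range of 200 to 764 in replicate 1 and of 138 to 1000 in replicate 2, with no unit stated. The replicates are separate biosamples, but both cite the same donor record, and part of their spread may be technical. With 1 group there is no contrast and no p-value, and errors are SD with n = 2.

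The 5 proteins work in different parts of the cell. TMCC2 is a transmembrane and coiled-coil protein of the endoplasmic reticulum. CD24, the heat-stable antigen, is a small and heavily glycosylated surface protein held by a GPI (glycosylphosphatidylinositol) anchor, and is found on mouse erythroblasts as well as on neutrophils and B cells. Methionine aminopeptidase 2, the product of Metap2, removes the first methionine from new proteins and is also known to bind eIF2, the factor that brings the initiator tRNA to the ribosome. PABPC1 coats the poly(A) tail of cytoplasmic mRNA and binds the initiation factor eIF4G. NARF binds farnesylated prelamin A at the nuclear envelope and belongs to a family of proteins with iron-sulfur clusters.

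The sequences that follow show where the members' transcripts begin to differ. Tmcc2 lies on chromosome 1 (132356315 to 132391281, minus strand, GRCm38), and 3 of its annotated transcripts encode protein from different start codons. Their first 45 coding bases are given with the start codon in capitals.
Tmcc2-201: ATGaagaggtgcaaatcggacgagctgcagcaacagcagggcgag
Tmcc2-203: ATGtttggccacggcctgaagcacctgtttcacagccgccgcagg
Tmcc2-206: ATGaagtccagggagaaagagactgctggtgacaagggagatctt

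Tmcc2-206, which held most of the Tmcc2 RNA, begins at an internal first exon, 23394 bases downstream of the start of Tmcc2-201. Its coding sequence has 1413 bases before the stop codon, of which the last 1386 are identical to those of Tmcc2-201 and Tmcc2-203. Only its first 27 coding bases differ, where Tmcc2-201 has 732 other bases and Tmcc2-203 has 498. The coding sequence of Tmcc2-203 is the last 1884 of the 2118 coding bases of Tmcc2-201.

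The 250 bases before 2 of the RefSeq starts of Tmcc2 (RefSeq, GRCm38.p6, minus strand) are shown because nearly all Tmcc2 RNA was assigned to transcripts of the internal start. Capitals mark matches to the GATA-type motif on either strand, the letters GATA with A or T before them and A or G after them, such as AGATAA. The most upstream window is chr1:132391387-132391636 and the internal window is chr1:132367949-132368198.
Tmcc2 most upstream: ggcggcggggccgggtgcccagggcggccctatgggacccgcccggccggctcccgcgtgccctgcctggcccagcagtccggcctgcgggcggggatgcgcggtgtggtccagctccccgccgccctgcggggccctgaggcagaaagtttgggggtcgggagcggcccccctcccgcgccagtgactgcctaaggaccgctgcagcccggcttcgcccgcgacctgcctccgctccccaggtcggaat
Tmcc2 internal: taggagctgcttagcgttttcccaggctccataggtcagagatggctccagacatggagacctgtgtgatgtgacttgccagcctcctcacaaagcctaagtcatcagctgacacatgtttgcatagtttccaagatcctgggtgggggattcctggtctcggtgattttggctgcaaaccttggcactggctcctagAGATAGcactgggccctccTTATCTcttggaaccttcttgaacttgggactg

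The most upstream window had a GC content of 78% and 28 CpG dinucleotides, and the internal window had 52% and 2. Over 32851 RefSeq windows of this length the medians were 52.4% and 6. The internal window held 2 GATA-type matches, AGATAG with its first base 52 bases before the start and TTATCT, the reverse complement of AGATAA, 33 bases before it. The most upstream window held none, and neither did the window before the start of Tmcc2-203. Of all windows, 26.5% held at least 1 such match and 6.40% held 2 or more, and 9.99% held AGATAA itself. The E-box CAGNTG was found once in the internal window, as CAGCTG, and in 44.8% of all windows. The CACC-type motif CCNCNCCC was found once there and 4 times in the most upstream window. Of all windows, which were not matched for GC content, 45.9% held at least 1 match and 27.3% held 2 or more. TATAAA was found in neither window and in 12.4% of all. The RefSeq window of Narf held no GATA-type match and 3 CCNCNCCC matches. The only RefSeq window of Metap2 held 1 of each. It lies before the start of Metap2-206, which held 9.27% and 4.93% of Metap2 TPM in replicates 1 and 2, and overlaps an annotated Metap2 exon. All Metap2 transcripts with at least 10% in either library start further downstream, and the bases before their starts were not examined. Pabpc1 and Cd24a had no entry in the RefSeq table used here. A match is a stretch of letters, and binding was not measured.

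Cd24a lies on chromosome 10 (43578284 to 43584265, plus strand). Its whole coding sequence, 231 bases with the stop codon, is given because of its small size (chr10:43579254-43582765, 1 intron removed, start and stop codons in capitals).
Cd24a-201: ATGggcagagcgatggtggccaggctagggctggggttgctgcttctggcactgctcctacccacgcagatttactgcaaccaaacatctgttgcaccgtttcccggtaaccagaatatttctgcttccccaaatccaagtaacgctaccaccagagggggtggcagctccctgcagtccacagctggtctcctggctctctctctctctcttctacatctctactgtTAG

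Pabpc1 lies on chromosome 15 (36595661 to 36609668, minus strand). Its non-coding transcript Pabpc1-207 shares 705 of 747 bases with exons of the coding transcript Pabpc1-201. The other 42 bases, at its 5′ end (chr15:36602305-36602346), are the stretch by which its exons differ from those of Pabpc1-201.
Pabpc1-207: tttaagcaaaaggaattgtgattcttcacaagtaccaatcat

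Levels are given as coding-scaled TPM, the deposited TPM (a read count divided by transcript length, as a share of the library) multiplied so that nuclear protein-coding genes add up to 1000000 in each library. The rescaling was needed because those genes held 11.3% of all deposited TPM in replicate 1 and 6.89% in replicate 2. Ranks are among 12895 protein-coding genes with a TPM above 0 in either library. Replicate 1 held 37312624 expected counts and replicate 2 held 22464724, so a count of 0 allows up to 0.0804 and 0.134 CPM (3 counts of the total, counting error only). A gene was called detected with at least 1 coding-scaled TPM in both libraries, which 9417 protein-coding genes were, at a median level of 13.6.

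Together the 5 genes held 2.12% of nuclear protein-coding TPM in replicate 1 and 2.56% in replicate 2 (2.34% ± 0.311). Of nuclear protein-coding counts they held 2.94% and 3.10% (3.02% ± 0.116). Tmcc2, Pabpc1, Metap2 and Cd24a each ranked between 7 and 13 in both libraries. Narf did not stand at that height, and held ranks 412 and 427.

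Tmcc2 (ENSMUSG00000042066) had 253887 counts in replicate 1 and 144656 in replicate 2, with a coding-scaled TPM of 5899 and 6403 (6151 ± 356), ranks 8 and 11. Its level was close to the same in both libraries. The mean was 452 times the median of detected genes.

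Cd24a (ENSMUSG00000047139) had 139202 and 55002 counts, with a coding-scaled TPM of 5641 and 4273 (4957 ± 967), ranks 9 and 13. In coding-scaled TPM it was the only member that was higher in replicate 1, while in the deposited TPM all members were higher there. The mean of Cd24a was 364 times the median of detected genes.

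Metap2 (ENSMUSG00000036112, chromosome 10, 93858489 to 93897093, minus strand) had 99113 and 72678 counts, with a coding-scaled TPM of 4715 and 7039 (5877 ± 1643), ranks 12 and 10. The higher value was in replicate 2.

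Pabpc1 (ENSMUSG00000022283) had 128284 and 85695 counts, with a coding-scaled TPM of 4694 and 7620 (6157 ± 2069), ranks 13 and 7. Of the 5 genes it had the widest spread in coding-scaled TPM. In the deposited TPM the widest spread was that of Cd24a (635 and 295), and Pabpc1 was at 528 and 525. The standard deviation that the tables estimate for its count, which reflects reads that could also come from similar sequences, was 4.4 and 5.85 counts. It was 0 for the other members.

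Narf (ENSMUSG00000000056, chromosome 11, 121237253 to 121255856, plus strand) had 13002 and 7331 counts, with a coding-scaled TPM of 278 and 291 (285 ± 8.71). It lay at percentile 96.8 and 96.7 and at 20.9 times the median of detected genes. The other members stood 14.7 to 26.2 times above it in the same library.

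**Figure D1:**
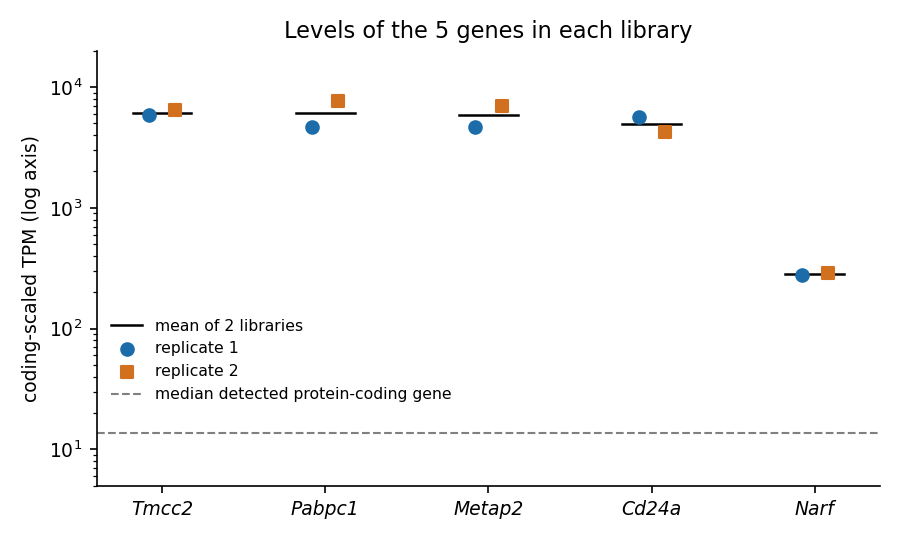
Level of each gene in replicate 1 (circle) and replicate 2 (square), in coding-scaled TPM on a log axis, with the mean as a bar and the median detected protein-coding gene (13.6) as a dashed line. Of the 5 genes, 4 lie between 4273 and 7620, and Narf lies at 278 and 291.

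By mean level the order was Pabpc1, Tmcc2, Metap2, Cd24a and Narf. Among the first 4, the ranges of the replicates overlapped for every pair except Tmcc2 and Cd24a, where Tmcc2 was 1.05 times as high in replicate 1 and 1.5 times in replicate 2. From protein-coding transcripts alone, described further on, that pair stood in the opposite order in both libraries, so no order among those 4 is read from these values. The range of Narf overlapped with none of the others.

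The genes of most similar mean level are given as the pair above and the pair below each member, a likeness over 2 libraries of 1 cell type. Slc4a1, the anion exchanger band 3, had a coding-scaled TPM of 7384 ± 810 and stood just above Pabpc1. S100a8 and S100a9, which encode a calcium-binding pair abundant in neutrophils, were at 8070 ± 918 and 6041 ± 1769, on either side of Pabpc1 and Tmcc2. Gpx1, a glutathione peroxidase, was at 5104 ± 489, between Metap2 and Cd24a. Below Cd24a stood Alas2, the erythroid enzyme that starts heme synthesis, at 3833 ± 345, and Epb41, the skeletal protein 4.1, at 3273 ± 78.5. Around Narf stood Ctsg (287 ± 28.0), Bmp2k (285 ± 0.338), Hsp90ab1 (284 ± 34.3) and Plac8 (283 ± 55.2). The range of each of these 4 overlapped that of Narf.

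Difference between the replicates was expressed as the log2 ratio of replicate 2 over replicate 1, from expected counts scaled with TMM, a method that sets the bulk of genes equal between libraries. Cd24a had a ratio of -0.45 (95% interval -0.46 to -0.43, for counting error only). Metap2 had a ratio of 0.45 (0.43 to 0.46) and Pabpc1 of 0.31 (0.30 to 0.32). Tmcc2 had a ratio of 0.08 (0.07 to 0.09) and Narf of 0.07 (0.03 to 0.11). Scaling by library size alone moved every ratio by -0.16, which put Tmcc2 at -0.08 and Narf at -0.09, so their sign rests on the scaling. The median of the 7658 genes described next moved with them, from -0.03 to -0.19.

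Of the 5 genes, 4 had a ratio above 0, beside 47.6% of 7658 protein-coding genes whose mean count reached 100. A ratio below 0 was found for 1 of the 5, beside 52.4% of those genes. With library size alone, 2 of the 5 had a ratio above 0, beside 33.0%, and 3 had one below 0. At least 2-fold apart were 0 of the 5, beside 8.44% (3.04% higher in replicate 2 and 5.39% higher in replicate 1). Of the genes past 2-fold, 36.1% were thus higher in replicate 2, and 19.3% with library size alone. At least 1.5-fold apart were also 0 of the 5, beside 23.8%, with 9.61% higher in replicate 2 and 14.2% in replicate 1. These counts of 0 are from TMM-scaled counts. With library size alone, Cd24a was past 1.5-fold (log2 ratio -0.61). In coding-scaled TPM, Pabpc1 was past it (0.70). From protein-coding transcripts alone, described further on, Metap2 was past it (0.84). The median ratio of the members was 0.08 against -0.03 over all 7658, and the median absolute ratio was 0.31 against 0.30. Many genes in that background had far fewer counts than the members. Among 497 protein-coding genes whose mean count reached 5000, the median absolute ratio was 0.14. Of these 497 genes, 40 had a larger absolute ratio than Cd24a, 41 than Metap2 and 86 than Pabpc1. For Tmcc2 and Narf the numbers were 344 and 373. Among these 497 genes, Cd24a, Metap2 and Pabpc1 thus had larger differences than most, and Tmcc2 and Narf smaller ones than most. The 497 are not matched to the members in depth.

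**Figure D2:**
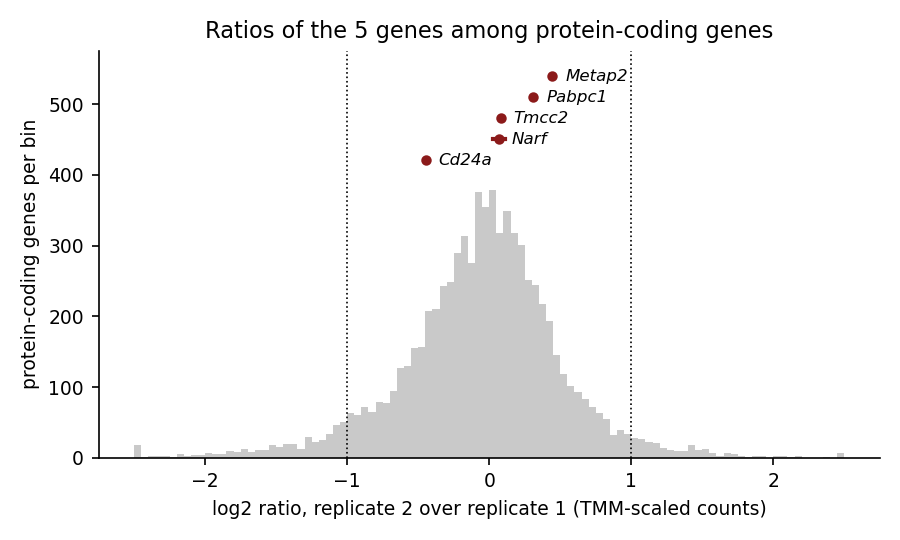
Log2 ratio of replicate 2 over replicate 1 of TMM-scaled counts for 7658 protein-coding genes (grey histogram, genes per bin; values beyond the plotted range are in the end bins) and for the 5 genes (points with 95% counting intervals, placed at arbitrary heights). Dotted lines mark 2-fold, and all 5 genes lie inside them, from -0.45 for Cd24a to 0.45 for Metap2.

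For Pabpc1 the ratio depended on the quantity. It was 0.70 from coding-scaled TPM, against 0.31 from counts. The effective length the deposited table gives for Pabpc1, an average over its transcripts weighted by their share, was 1798 bases in replicate 1 and 1451 in replicate 2. For the other members the 2 ratios were 0.12 and 0.08 (Tmcc2), 0.58 and 0.45 (Metap2), -0.40 and -0.45 (Cd24a), and 0.06 and 0.07 (Narf).

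Transcript shares are the percent of a gene's TPM that the deposited tables assign to each annotated transcript. They are estimates, since most exons of a gene are shared by several transcripts, and every transcript with at least 10% in either library is described.

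Most Tmcc2 RNA was assigned to the internal start. Tmcc2-206, coding, 4 exons and 2769 bases, held 72.8% in replicate 1 and 63.3% in replicate 2 (68.0% ± 6.74). Tmcc2-205, a retained-intron transcript from the same first exon, held 22.4% and 30.0% (26.2% ± 5.44). It keeps 1236 bases that are outside the exons of Tmcc2-206.

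The pair held 95.2% and 93.3% of Tmcc2 TPM (94.2% ± 1.30), or 5613 and 5974 coding-scaled TPM. The 2 coding transcripts with upstream starts, Tmcc2-201 and Tmcc2-203, together held 2.9% and 2.69% (2.80% ± 0.148), or 171 and 173 coding-scaled TPM, from 8614 and 4476 counts. The upstream forms alone stood above the median detected gene of 13.6, and their share differed little between the libraries. The antisense gene Gm15849, which lies within Tmcc2, had 0 counts in both libraries.

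Transcripts that start at least 10000 bases downstream of the most upstream annotated start held 97.1% and 97.3% of Tmcc2 TPM. Of 7039 detected protein-coding genes with at least 2 transcripts, 262 (3.72%) had at least 90% of their TPM in such transcripts in both libraries. The 7039 include genes with no annotated start that far downstream, such as Narf, which could not reach this. The share among genes that could was not computed. The GATA-type matches described above lie before this internal start, and Tmcc2-206 begins 61 bases downstream of the RefSeq start used for that window.

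**Figure D3:**
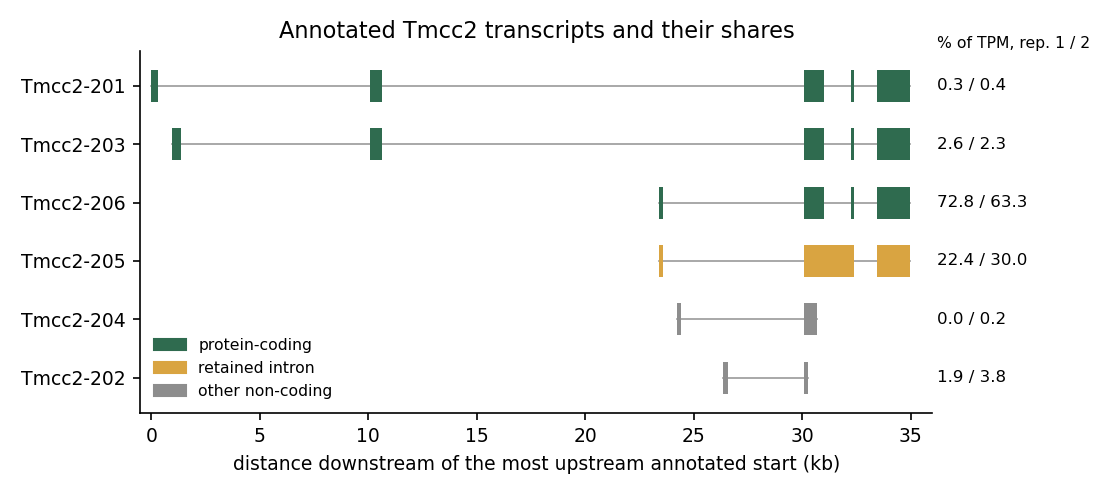
Exons (boxes) of the 6 annotated Tmcc2 transcripts by distance in kb from the most upstream start, drawn 5′ to 3′ and coloured by transcript class, with the percent of Tmcc2 TPM in replicates 1 and 2 at the right. Tmcc2-206 and Tmcc2-205 share the internal first exon and hold 95.2% and 93.3% together.

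Cd24a had a single transcript in the tables, Cd24a-201, with 2 exons, so 100% of its TPM stood on a coding transcript in both libraries. With 1 transcript, no retained-intron or other non-coding share could be assigned to it, so this does not set it apart from the other members.

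Metap2 had 16 transcripts, 1 of them at 0 in both libraries, and none held a majority. Metap2-208, coding, 11 exons, held 19.7% and 27.3% (23.5% ± 5.44). Metap2-211, a retained-intron transcript of 547 bases, held 24.4% and 15.3% (19.9% ± 6.45). By TPM the leading transcript was thus Metap2-211 in replicate 1 and Metap2-208 in replicate 2. By counts, which are not divided by length, Metap2-208 led in both libraries, narrowly over Metap2-201 in replicate 1 (23.96% and 23.02%) and with 35.4% in replicate 2, and Metap2-211 held 6.31% and 4.54%.

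Metap2-210, also coding, held 12.1% and 9.0%, and the shorter coding transcript Metap2-204 held 7.27% and 11.3%. The 3 transcripts that start at least 1 kb upstream of Metap2-201 held 18.2% and 9.8% together. The neighbouring genes 4930471D02Rik and Usp44 had 0 counts in both libraries and 0 and 6 counts, respectively.

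By TPM, the leading transcript of Pabpc1 was not the same in both libraries. Pabpc1-201, coding, 15 exons and 2817 bases, held 52.4% and 37.5% (44.9% ± 10.6). Pabpc1-207, the short transcript whose 5′ bases are printed above, held 19.5% and 45.4% (32.4% ± 18.3), from 7748 and 15945 counts. In counts, Pabpc1-201 led in both libraries with 76.6% and 68.8%, and Pabpc1-207 held 6.04% and 18.6%.

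The share of Pabpc1-207 differed by 25.9 percentage points between the libraries. Among 404 detected genes with at least 2 transcripts and a mean count of 5000 or more, the largest difference of any transcript share had a median of 10.8 points, and 50 genes had a larger one than Pabpc1. The numbers were 225 for Tmcc2, 238 for Metap2 and 334 for Narf. The size ranges given for the libraries differ as well (200 to 764 and 138 to 1000), and their part in the shares of short transcripts was not tested.

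Narf-201, coding, 11 exons and 4395 bases, held 70.7% and 74.4% of Narf TPM (72.6% ± 2.66) and 96.8% and 97.1% of its counts. Narf-202, a retained-intron transcript of 525 bases with 355 of them outside the exons of Narf-201, held 29.3% and 25.6%. Its share of counts was 3.20% and 2.93%. Narf-203 was at 0 in both libraries.

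Over the 5 genes, the share of TPM on protein-coding transcripts was 75.7% and 66.0% for Tmcc2, 53.0% and 37.6% for Pabpc1, 55.8% and 66.4% for Metap2, 100% in both for Cd24a, and 70.7% and 74.4% for Narf. The medians over the 7039 genes, all with at least 2 transcripts, were 89.8% and 88.0%. Cd24a is not one of these genes, and the other 4 members lay below the medians in both libraries. Retained-intron transcripts held 22.4% and 30.0% of Tmcc2, 27.6% and 17.0% of Pabpc1, 35.3% and 27.7% of Metap2, and 29.3% and 25.6% of Narf. Of the 7039 genes, 22.9% and 24.3% had at least 20% there, and the median was 0 in both libraries. The 7039 were not limited to genes with an annotated retained-intron transcript, and a gene without any stands at 0. Tmcc2 has 1 such transcript, Pabpc1 4, Metap2 5 and Narf 2. The share among genes that have such transcripts was not computed, so these values do not set the members apart. Total RNA depleted of ribosomal RNA also holds unspliced RNA, and its part in these shares was not tested.

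**Figure D4:**
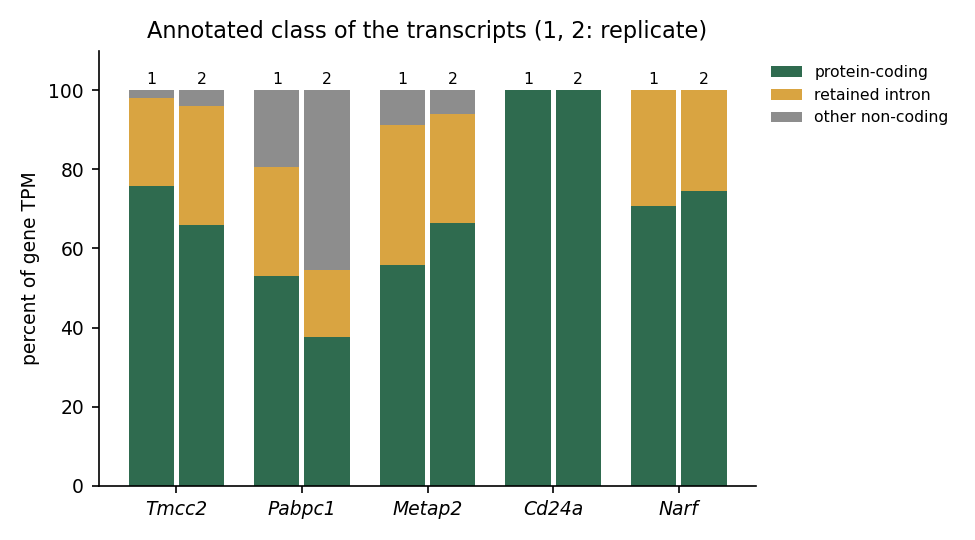
Percent of each gene's TPM on protein-coding, retained-intron and other non-coding transcripts, one bar for each replicate. Cd24a stands at 100% protein-coding, and the other non-coding share of Pabpc1 is 19.5% in replicate 1 and 45.4% in replicate 2.

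When levels were computed from the protein-coding transcripts of every gene alone, a choice made after seeing the data, Tmcc2 had 5332 and 5086 (ranks 11 and 12) and Cd24a had 6736 and 5145 (ranks 8 and 11). Metap2 had 3141 and 5624 (ranks 16 and 9). Pabpc1 had 2968 and 3453 (ranks 17 and 16). In log2, the difference between the replicates was then 0.22 for Pabpc1, against 0.70 over all its transcripts, and 0.84 for Metap2, against 0.58. For Tmcc2 it turned from 0.12 to -0.07. Cd24a, which has 1 transcript and so loses nothing by this measure, stood above Tmcc2 in both libraries. Narf had 235 and 261 (ranks 443 and 425).

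The members were then set beside their relatives and the genes they work with. Of the TMCC family, Tmcc1 was at 13.1 ± 3.90 coding-scaled TPM, near the median detected gene. Tmcc3 was at 0.395, from 18 and 17 counts. Tmcc2 stood 373 and 622 times above Tmcc1 in replicates 1 and 2.

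Among the cytoplasmic and nuclear poly(A)-binding proteins, 3 of 9 genes were detected. Pabpc4, the inducible form, was at 238 ± 15.9, and Pabpn1, the nuclear form, at 58.1 ± 0.718. Pabpc5, Pabpc4l, Pabpc6, Pabpc1l and Pabpn1l had 0 counts in both libraries, and Pabpc2 had 17 and 0. Pabpc1 stood 20.7 and 30.6 times above Pabpc4.

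All 18 partners of PABPC1 on the list were detected, at a median of 34.3 ± 1.18. The highest were Eif4g2, a relative of the scaffold eIF4G (482 ± 168), Ybx1, an mRNA-binding protein (258 ± 35.7), and Paip2, which inhibits PABPC1 (191 ± 38.0). The 15 deadenylase genes, whose products shorten the poly(A) tail, were also all detected, with a median of 26.9 ± 1.54. They were led by Pan3 (186 ± 11.7), Cnot6 (46.9 ± 10.4) and Cnot2 (44.5 ± 7.56). No gene on either list came near Pabpc1.

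Metap2 also stood far above its relatives. Metap1, the other cytosolic methionine aminopeptidase, was at 11.2 ± 2.47, and Metap1d, the mitochondrial one, at 7.49 ± 1.98. Metap2 was 501 and 545 times as high as Metap1.

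Of 18 genes for methionine removal and for modification of the new N-terminus, 17 were detected and Naa11 had 0 counts. After Metap2 the highest were Naa15 (48.2 ± 5.69) and Naa50 (26.9 ± 4.62), both of N-terminal acetylation. Nmt1, which adds myristate to glycines exposed by methionine removal, was at 17.9 and 18.1 in replicates 1 and 2. The median of the list without Metap2 was 13.7 ± 1.77, near that of all detected genes.

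All 8 genes for eIF2 subunits and eIF2 kinases were detected. Eif2ak1, the heme-regulated kinase HRI, was the highest at 829 ± 62.2, followed by the subunit genes Eif2s3y (119 ± 13.6) and Eif2s2 (83.6 ± 4.40). The median was 51.1 ± 0.480.

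Cd24a was set beside 8 other surface antigens used to stage erythroblasts, all of which were detected. Slc4a1 (7384 ± 810) stood above it, and Tfrc, the transferrin receptor used as CD71 (3198 ± 474), stood below. Cd36 was at 1346 ± 197 and Itga4 at 359 ± 65.0. Itgb1 was at 57.0 ± 3.47, Cd44, whose surface level falls as erythroblasts mature, at 42.7 ± 6.00, and Kit, the receptor of early stages, at 16.1 ± 5.54. Cd24a was 120 and 111 times as high as Cd44. Ratios below 0, as for Cd24a, were found for Itga4 (-0.38), Itgb1 (-0.21), Cd44 (-0.52) and Kit (-0.05, with an interval that included 0). Slc4a1, Tfrc and Cd36 had ratios above 0, of 0.08, 0.14 and 0.23. Of the 7658 genes, 52.4% had a ratio below 0 and 47.6% above.

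**Figure D5:**
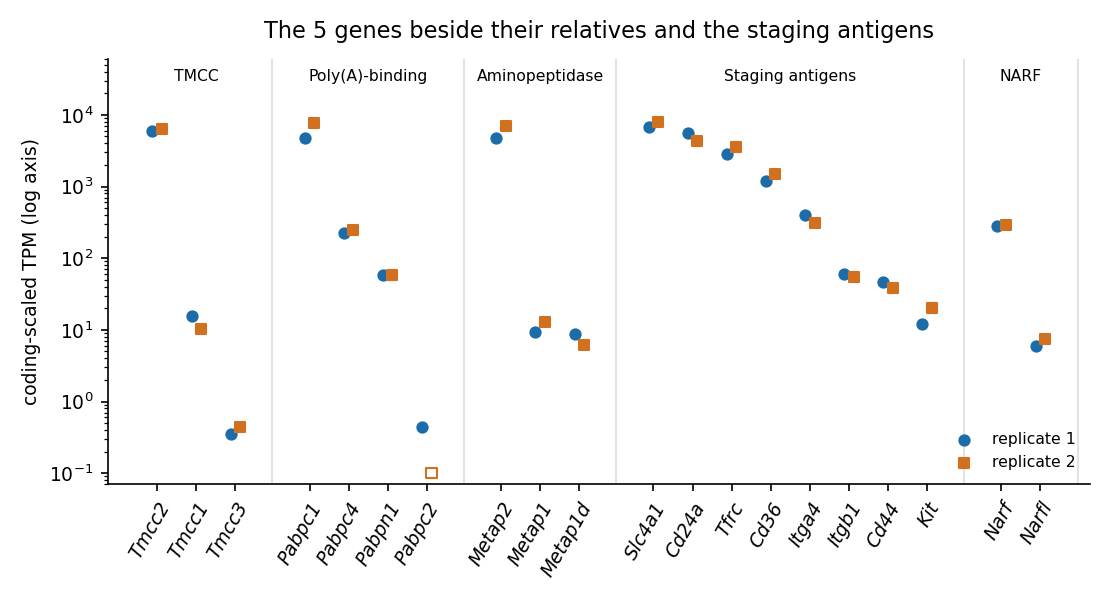
Coding-scaled TPM on a log axis of the 5 genes beside their relatives and the staging antigens, in replicate 1 (circle) and replicate 2 (square), with an open square at the bottom of the axis for Pabpc2, listed at 0 in replicate 2. Tmcc2, Pabpc1 and Metap2 stand 20.7 to 622 times above their next relative, and Cd24a lies between Slc4a1 and Tfrc.

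Among 27 genes for GPI-anchored surface proteins, 16 were detected. Cd24a was the highest, followed by Art4, whose human counterpart carries the Dombrock blood group (387 ± 31.1), Ly6c2 (287 ± 162) and Cd52 (248 ± 133). Gas1, Folr1, Cd55b, Slurp1 and Folr2 had 0 counts in both libraries. Of 13 genes of this list whose mean count reached 100, Cd24a included, 12 had a ratio below 0, against 52.4% of all such genes, and the median ratio was -0.45, that of Cd24a itself. At least 2-fold higher in replicate 1 were 3 of the 13 (Cd52 at -1.07, Ly6e at -1.08 and Ly6g at -1.41), beside 5.39% of all such genes. The lower value of Cd24a in replicate 2 went with lower values of most other measured genes of the list. The intervals of Ache (-0.02) and Cd48 (-0.19) included 0. A lean below 0 was also found for the neutrophil and erythroid markers given next, so it is not particular to this list.

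Several of those genes, Ly6c2, Cd52 and Ly6g among them, are also expressed by myeloid cells. All 14 neutrophil markers were detected, with a summed level of 20966 coding-scaled TPM in replicate 1 and 20430 in replicate 2. Their median level was 398 ± 97.2, their median ratio was -0.25, and 10 of 14 had a ratio below 0. The 10 erythroid markers had a median ratio of -0.23, with 8 of 10 below 0. The 10 markers of monocytes and macrophages summed to 683 and 415, with 9 detected. Ly6c2, which is on this list as well, held 402 and 173 of these sums. The median ratio of the list was -0.15, with 7 of 9 measured genes below 0. Of 10 B cell markers 1 was detected, with sums of 10.2 and 4.21, and Pax5, Blk and Igll1 were at 0. The part of other cells in the level of Cd24a or in its difference between the replicates was not tested. In bulk RNA, fewer cells of a type and less RNA per cell cannot be told apart.

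All 10 erythroid markers were detected, with a median of 5609 ± 578, and ran from Gata1 (41.7 ± 15.5) to Hba-a2 (259461). Detection alone does not bear out the erythroid label, since all 14 neutrophil markers were detected as well. The 9 T and NK cell markers summed to 38.7 and 29.0, and the 9 megakaryocyte markers to 122 and 148. The 8 stem and progenitor markers summed to 37.8 and 37.7, and the 7 of endothelium and stroma to 15.5 and 21.9. Of 6 markers of other organs, Gfap was at 49.3 ± 5.54 and the other 5 were at 0.

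Of the genes known to bind CD24 or to signal with it, 6 of 9 were detected. The highest were Hmgb1, a chromatin protein that binds CD24 when released (253 ± 22.3), and the Src-family kinases Lyn (39.1 ± 2.70) and Fgr (16.9 ± 4.06). Siglecg, the inhibitory receptor for CD24, was at 8.50 ± 4.44, and Sele had 0 counts. For synthesis and transfer of the GPI anchor, 24 of 29 genes were detected at a median of 5.95 ± 0.00487. Pigq, a subunit of the enzyme of the first step, stood apart at 1748 ± 205, followed by Mppe1 (192 ± 11.9) and Dpm1 (74.7 ± 49.4).

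Narf was set beside its relative Narfl and the genes of cytosolic iron-sulfur assembly. Of 10 genes on the list 8 were matched, Narf included, and all 8 were detected, while Fam96a and Fam96b were not matched by symbol and were not analysed here. Narfl was at 6.63 ± 1.08, and Narf was 47.5 and 39.3 times as high. After Narf the highest were Ciapin1 (39.6 ± 7.54) and Ciao1 (25.1 ± 9.70), and the median without Narf was 11.8 ± 4.01.

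All 19 genes for lamins, their partners and prelamin processing were detected, with a median of 22.3 ± 3.48. The highest were Lbr, the lamin B receptor (236 ± 33.5), Tmpo (160 ± 51.8) and Lmnb1 (93.4 ± 34.5). Lmna, which encodes the prelamin A that NARF binds, was at 53.4 ± 5.68. Narf, at 285 ± 8.71, stood above Lmna in both libraries.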

How the data were processed

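Each library had 1 table per gene and 1 per transcript, with no pooling. The assembly is mm10 per the labels, and GENCODE M4 annotation is named in the deposited text records. The aligner and the quantifier were not given in the sources used here. Expected counts (estimated, not always whole) stand in the authors' tables per the file headers, beside deposited TPM over all features and the percent of a gene's TPM on each transcript. Per the file headers they also hold the posterior standard deviation of each count, used as a score of shared reads, and interval bounds of TPM, a deposited signal that was not used for any result. Of 43346 Ensembl genes, 42462 matched GENCODE M21 (GRCm38), which gave symbols, classes and coordinates. Features that name no Ensembl gene held 8 and 28 counts and were left out.

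TPM was rescaled over nuclear protein-coding genes. Expected counts were rounded, and TMM factors came from edgeR 4.0.16 in R 4.3.3 over 12757 genes whose mean count reached 10. DESeq2 1.42.0 size factors were an alternative. Ratios have exact Clopper-Pearson 95% intervals, which cover counting error only because each side is 1 library. No molecular identifiers were used. This step was tested on simulated counts that held counting error only, so the test does not cover differences between real libraries. The rest was done with pandas 2.3.3, numpy 2.4.6, matplotlib 3.10.9 and scipy 1.17.1 under Python 3.11.15. Promoter windows are RefSeq's (GRCm38.p6), and coding sequences come from GENCODE M21 transcripts.

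The members and gene lists were chosen with earlier results of these data known. Genes named are the 5 members, transcripts with at least 10% of TPM in either library, the pair of genes above and below each member in rank, and from each list the paralogs, the 3 highest and those at 0 counts. The other staging antigens, Siglecg, Lmna, Nmt1, the genes past 2-fold and overlapping or neighbouring genes were named after their values were seen. The values of 1 staging antigen are not reported here.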

Additional observations from a re-analysis of the deposited data

How the results depend on the processing

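The share of coding TPM held by the 5 genes (2.34%) was 3.64% with the adult globins left out of the total, 3.02% by counts and 1.90% from protein-coding transcripts alone, and 2.12% to 2.56% without either replicate. Their median rank (11.5) was 10 by count per full length, 14 from protein-coding transcripts alone, and 11 to 12 without either replicate. The median log2 ratio (0.08) turned to -0.0796 with library size alone, the value of Tmcc2 (-0.0796), and Narf turned to -0.0946; that scaling moves all genes by -0.16. It was 0.10 with TMM over protein-coding genes, 0.0667 with no filter on low counts and 0.12 from coding-scaled TPM. The count of members at least 2-fold apart was 0 under every alternative tried at that limit. The deposited TPM without rescaling was not among them, and in it Cd24a (635 and 295) was more than 2-fold apart. The share of nuclear protein-coding genes in that TPM was also lower in replicate 2 (11.3% and 6.89%). At 1.5-fold the count was also 0 from TMM-scaled counts, while Cd24a was past that limit with library size alone (-0.61). The median leading transcript share (67.0%) was 72.7% by counts, 99.3% among protein-coding transcripts alone, and 63.3% to 70.7% without either replicate. The median share on protein-coding transcripts (68.5%) was 82.7% by counts and 66.4% to 70.7% without either replicate. The alternative over protein-coding transcripts for levels was added after seeing the data. No paired analysis was possible because there is 1 group. Depth limits little for the members, the lowest of which had 7331 counts, but genes at 0 counts are bounded only at 0.0804 and 0.134 CPM. With 2 replicates, an SD is itself a rough estimate, and shares of overlapping transcripts rest on the authors' assignment of reads.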
